A study of Mus musculus with 30 samples.

Results

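The 9 genes described here act in early lymphocytes: *Rag1*, *Rag2*, *Dntt*, *Igll1*, *Vpreb1*, *Tespa1*, *Cd72*, *Il7r* and *Ebf1*. They were taken by name from a list, out of 21631 protein-coding mouse genes on chromosomes 1 to 19 and X. They were selected on earlier results of these same data, namely the H3K4me3 peaks and HOXA9 sites near them, with more H3K4me3 at several of them in estradiol (E2) than after its withdrawal. The H3K4me3 lengths and sites given below therefore describe the genes and support nothing. Of the 9 genes, 6 had an H3K4me3 peak in the E2 list, and *Rag1*, *Vpreb1* and *Il7r* had none in any list. The description as primed for the lymphoid lineage thus covers some of the genes and not others.

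Chromatin immunoprecipitation with sequencing was applied to cultured C57BL/6 mouse cells. H3K4me3, trimethylation of lysine 4 of histone H3 and a mark of active promoters, was mapped in ER-Hoxa9-Lys-GFP cells, in which HOXA9 is fused to the hormone-binding part of the estrogen receptor and is active while E2 is present. Their 5 conditions were E2 throughout, 120 h without E2, and 24, 40 or 72 h without E2 followed by 96, 80 or 48 h with E2 restored. In what follows 24, 40 and 72 h name the restored conditions, and their time back in E2 becomes shorter as the withdrawal becomes longer, so that the effects of both cannot be told apart. Sites of tagged HOXA9 came from precipitations that the titles call V5 or AM, in 2 other lines, V5-Hoxa9-AM (untreated, V5 and AM) and its estrogen receptor fusion V5-ER-Hoxa9-AM (E2, V5 and AM, and 72 h without E2 then 48 h with E2, V5). Both AM samples carry V5 as their antibody label. All the cells therefore carry a HOXA9 construct, and no condition without one was analysed here. Each condition was 1 library, so differences could not be checked against replicates or tested, and a shorter peak in the whole culture cannot be told apart from a peak in fewer of its cells.

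Lymphoid priming is the appearance of lymphocyte-gene chromatin or transcripts in progenitors that have not yet chosen between the myeloid and lymphoid lineages. In the B lineage, EBF1 and E2A turn on the genes of the surrogate light chain and of the RAG recombinase, while signals through the interleukin-7 receptor support survival and growth. HOXA9 is a homeodomain factor of early progenitors that binds DNA together with MEIS and PBX proteins.

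Both gene pairs that sit next to each other among the 9 had a marked and an unmarked partner, and the 250 bases before the annotated start sites of those 4 genes are shown for that reason (RefSeq, GRCm38.p6, each 5′ to 3′ on the gene's own strand). Capitals mark TGACAG, the core bound by MEIS proteins, and CAGNTG, an E-box bound by E2A, on either strand. The intervals are chr2:101624462-101624711 (plus strand) for *Rag2*, chr2:101649533-101649782 (minus strand) for *Rag1*, chr16:16863986-16864235 (minus) for *Igll1* and chr16:16869256-16869505 (minus) for *Vpreb1*.
Rag2: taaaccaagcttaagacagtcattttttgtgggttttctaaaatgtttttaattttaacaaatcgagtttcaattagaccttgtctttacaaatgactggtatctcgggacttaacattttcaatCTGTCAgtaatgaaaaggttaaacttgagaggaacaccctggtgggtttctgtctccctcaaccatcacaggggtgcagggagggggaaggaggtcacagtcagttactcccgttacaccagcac
Rag1: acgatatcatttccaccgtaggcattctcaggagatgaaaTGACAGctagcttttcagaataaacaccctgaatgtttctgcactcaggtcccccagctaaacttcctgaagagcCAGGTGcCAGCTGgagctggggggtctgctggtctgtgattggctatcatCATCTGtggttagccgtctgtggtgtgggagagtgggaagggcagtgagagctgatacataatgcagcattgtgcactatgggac
Igll1: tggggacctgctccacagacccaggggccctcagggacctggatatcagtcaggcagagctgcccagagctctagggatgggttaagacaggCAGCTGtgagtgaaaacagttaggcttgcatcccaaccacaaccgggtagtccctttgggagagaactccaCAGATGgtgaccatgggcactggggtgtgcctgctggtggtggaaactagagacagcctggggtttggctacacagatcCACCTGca
Vpreb1: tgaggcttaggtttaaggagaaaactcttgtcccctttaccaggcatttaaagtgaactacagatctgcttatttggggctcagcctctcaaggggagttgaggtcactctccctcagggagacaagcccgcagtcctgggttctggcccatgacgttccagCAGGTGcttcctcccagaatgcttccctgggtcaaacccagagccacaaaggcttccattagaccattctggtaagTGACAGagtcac
An E-box stood in the 300 bases around the start site (250 before to 50 after) of both members of each pair, and TGACAG in those of *Rag2*, *Rag1* and *Vpreb1* but not *Igll1*. The *Rag2* E-box lies after the start site and is outside the stretch shown.

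The promoters of 8 of the 9 genes were in the RefSeq table, as 9 windows of 300 bases, since *Ebf1* has 2 start sites. CAGNTG was present in 6 of the 9 windows and in 51.4% of all 32619 windows. TGACAG was present in 4 (*Rag2*, *Rag1*, *Vpreb1*, *Dntt*) against 18.9% of all windows. GAGGAA, a core bound by PU.1, stood in 5 windows (28.2% of all), TGTGGT, bound by RUNX factors, in 4 (16.6%), and TGGGAA, bound by Ikaros, in 2 (25.4%). The EBF1 core CCCNNGGG (13.8% of all windows) and the MYB core AACNGTT (4.45%) were each found in 1 window, that of *Igll1*. The C/EBP core TTGCNNAA (10.9%) was found at *Il7r*, and TTTATNG, a core bound by HOXA9, in 0 of the 9 windows against 10.9% of all. TGACAG ends with the CAG that begins CAGNTG, and GAGGAA and TGGGAA share GGAA. Both strands were searched, and a match is a description of the sequence. CpG dinucleotides, which many constantly active promoters hold in large numbers, numbered 1 at *Il7r*, 2 at *Igll1*, *Vpreb1* and *Dntt*, 3 at *Rag1* and *Rag2*, 7 at *Cd72*, and 9 and 17 at the start sites of *Ebf1*. The median over all windows was 7. *Ebf1* was thus the one member above it.

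H3K4me3 was measured as the length covered by peaks within a gene and 1 kb on either side. In that window 6 of the 9 genes had a peak in E2 and also in the 24 and 40 h lists. At 72 h 3 did (*Rag2*, *Tespa1*, *Ebf1*), and at 120 h *Ebf1* was the 1 left. Over all genes the share with a peak moved little and upward, from 47.1% in E2 to 50.7%, 50.5%, 51.4% and 53.2% in the same order. Of the 6 members marked in E2, 5 had no peak at 120 h. Of all 10188 genes marked in E2, 0.903% had none at 120 h, a share beside which the members' count cannot be read, because this contrast helped to choose them. At 72 h the mark was missing at 3 of the 6, against 0.756% of all genes marked in E2, and at 24 and 40 h at 0 of the 6, against 0.874% and 0.824%. These comparisons share the E2 list. The members' counts at 24, 40 and 72 h cannot be read beside the shares either, because H3K4me3 peaks of these data helped to choose the members.

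**Figure D1:**
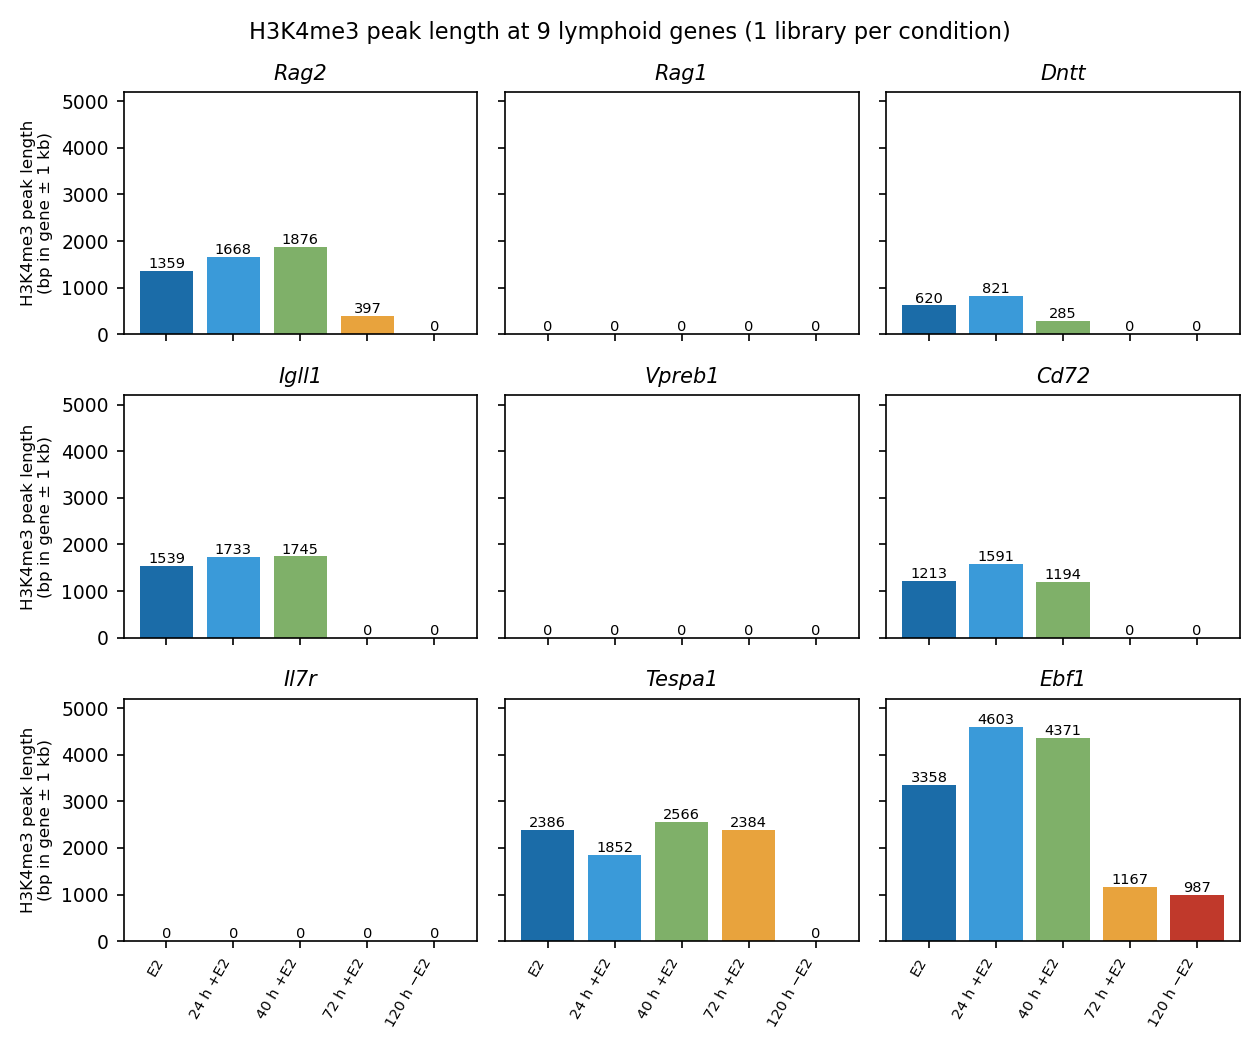
Length of H3K4me3 peaks (bp, vertical axis) within each of the 9 genes and 1 kb on either side, in the 5 conditions (1 library each, no error bars). *Dntt*, *Igll1* and *Cd72* are covered in the first 3 conditions and are at 0 from 72 h, *Tespa1* keeps 2384 bp at 72 h, and *Rag1*, *Vpreb1* and *Il7r* are at 0 throughout.

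The recombination genes differed within a single locus. *Rag2*, which encodes the subunit that lets the V(D)J recombinase read H3K4me3-bearing chromatin, had covered lengths of 1359, 1668, 1876, 397 and 0 bp in the order E2, 24, 40, 72 and 120 h (gene chr2:101624712-101632528, GRCm38). The 3 lists with E2 or early restoration were high, the 72 h list held 29.2% of the E2 length, and the 120 h list held nothing. With 50 bp added to both lengths, the 72 h value was lower than in E2 by a log2 ratio of -1.66, beside a median of 0.54 over the 11205 genes with a peak in either list. In E2 the peaks ran from 198 bp before the start site to 1362 bp after it, in 3 pieces, the widest of 842 bp. The single peak left at 72 h, 397 bp wide, ran from 47 bp before to 349 bp after the start site. The covered part had thus drawn in around the start site.

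*Rag1*, which encodes the catalytic subunit, lies 5.723 kb from *Rag2* and is transcribed towards it (gene chr2:101638252-101649532, minus strand). It had 0 bp in all 5 lists. Outside the window, a narrow peak lay 3.098 kb beyond its start-site end at 24 h (chr2:101652630-101652995) and 3.161 kb beyond it at 40 h (chr2:101652693-101652989), with no counterpart in E2, at 72 h or at 120 h. The gene *Iftap* overlaps *Rag2* over 4320 bp, so the peaks at *Rag2* count for both. No list had a peak at the start site of *Iftap*, chr2 position 101629031, and the *Rag2* peaks end at 101626570 or before it. At 120 h the nearest peak to *Rag2* was 45.869 kb away.

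*Dntt*, which encodes terminal deoxynucleotidyl transferase, the enzyme that adds untemplated bases at recombined joints, had 620, 821, 285, 0 and 0 bp in the order E2, 24, 40, 72 and 120 h (chr19:41029275-41059525). It was the least covered of the 6 marked members: 24.5% of the genes marked in E2 had less. Its peaks lay wholly inside the gene, from 667 to 1943 bp after the start site in E2, and did not touch the 300-base promoter window in any list. *Dntt* was also the one member at least 2-fold shorter at 40 h than in E2, where 0.9% of genes marked in either list were. Its ratio, with 50 bp added, lay exactly on that limit.

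The surrogate light chain genes formed the other pair. *Igll1*, which encodes its lambda-like part, was covered over 1539, 1733, 1745, 0 and 0 bp in that order (chr16:16860671-16863985, minus strand). In E2 the mark was in pieces of 739 and 800 bp from 28 to 1630 bp after the start site. At 24 h it was 1 peak of 1733 bp and at 40 h 1 peak of 1745 bp, wider than 97.6% and 96.4% of all peaks of those lists. Nothing was left at 72 h, when the nearest peak was 6.744 kb away.

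*Vpreb1*, which encodes the variable-like part, lies 4.415 kb from *Igll1*, as measured between the nearer gene ends (chr16:16868401-16869255, minus strand). It had 0 bp in all 5 lists. The nearest peak lay between 1.474 and 1.728 kb away and belonged to the next gene, *Top3b*, a DNA topoisomerase gene with 1315, 1135, 1399, 1591 and 999 bp in the same order. At 72 h, H3K4me3 was thus missing at *Igll1* and still listed at *Top3b*.

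*Cd72*, a lectin-like co-receptor of B cells, was covered over 1213, 1591, 1194, 0 and 0 bp (chr4:43447724-43455102, minus strand). Each list with a mark had 1 peak there, from 84 to 1296 bp after the start site in E2. The 3 values lay close together, and the 40 h length was 98.4% of that in E2. *Tesk1*, a kinase gene that overlaps the far end of *Cd72* by 352 bp, had 1010, 819, 942, 965 and 1593 bp.

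*Il7r*, which encodes the alpha chain of the interleukin-7 receptor, had 0 bp in all 5 lists (chr15:9506159-9529941). The nearest peak lay 364.9 kb away in E2 and about 218.5 kb away in each of the 4 others, so no H3K4me3 was called in its wider surroundings.

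*Tespa1*, which encodes a thymocyte protein of T cell receptor signalling, had a 72 h value unlike those of the 5 other marked members. Its lengths were 2386, 1852, 2566, 2384 and 0 bp (chr10:130322826-130363469). The 72 h length was 99.9% of that in E2. The E2 peak was a single stretch of 2386 bp, wider than 99.5% of all peaks of its list, beginning 31 bp inside the gene end of lower coordinate. At 72 h peaks of 498 and 1886 bp covered nearly the same stretch. At 120 h the nearest peak was 178.435 kb away.

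*Ebf1*, the transcription factor that specifies the B lineage, was the most covered member in E2 and at 24, 40 and 120 h, second to *Tespa1* at 72 h, and the one with a peak in every list. Its lengths were 3358, 4603, 4371, 1167 and 987 bp in the order E2, 24, 40, 72 and 120 h (chr11:44618100-45008096). In E2 98.8% of the genes marked had less, and at 120 h 27.4%. The log2 ratio to E2, with 50 bp added, was 0.45, 0.38, -1.49 and -1.72 in the 24, 40, 72 and 120 h lists. Over all genes marked in either list the median ratio was 0.35, 0.40, 0.54 and 0.59. The 72 and 120 h values of *Ebf1* were thus close to each other and both far under E2.

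Most of what remained at *Ebf1* lay near its 2 start sites. In E2, 6 peaks ran from 1646 bp before to 4354 bp after the first start site. At 120 h peaks of 412 and 291 bp remained there, at chr11:44618200-44618611 and chr11:44619831-44620121, and another of 284 bp lay 274747 bp into the gene. The 300-base window of the first start site was covered over 264, 299, 300, 0 and 0 bp. That of the second was covered in full in every list but that of 120 h, where 144 bp of its 300 were. At 72 and 120 h the mark was thus listed at the second start site and not in the window of the first. A peak of 490 bp at 72 h lay 1.102 kb before the gene, just outside the 1 kb limit, and is not in the value above.

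**Figure D2:**
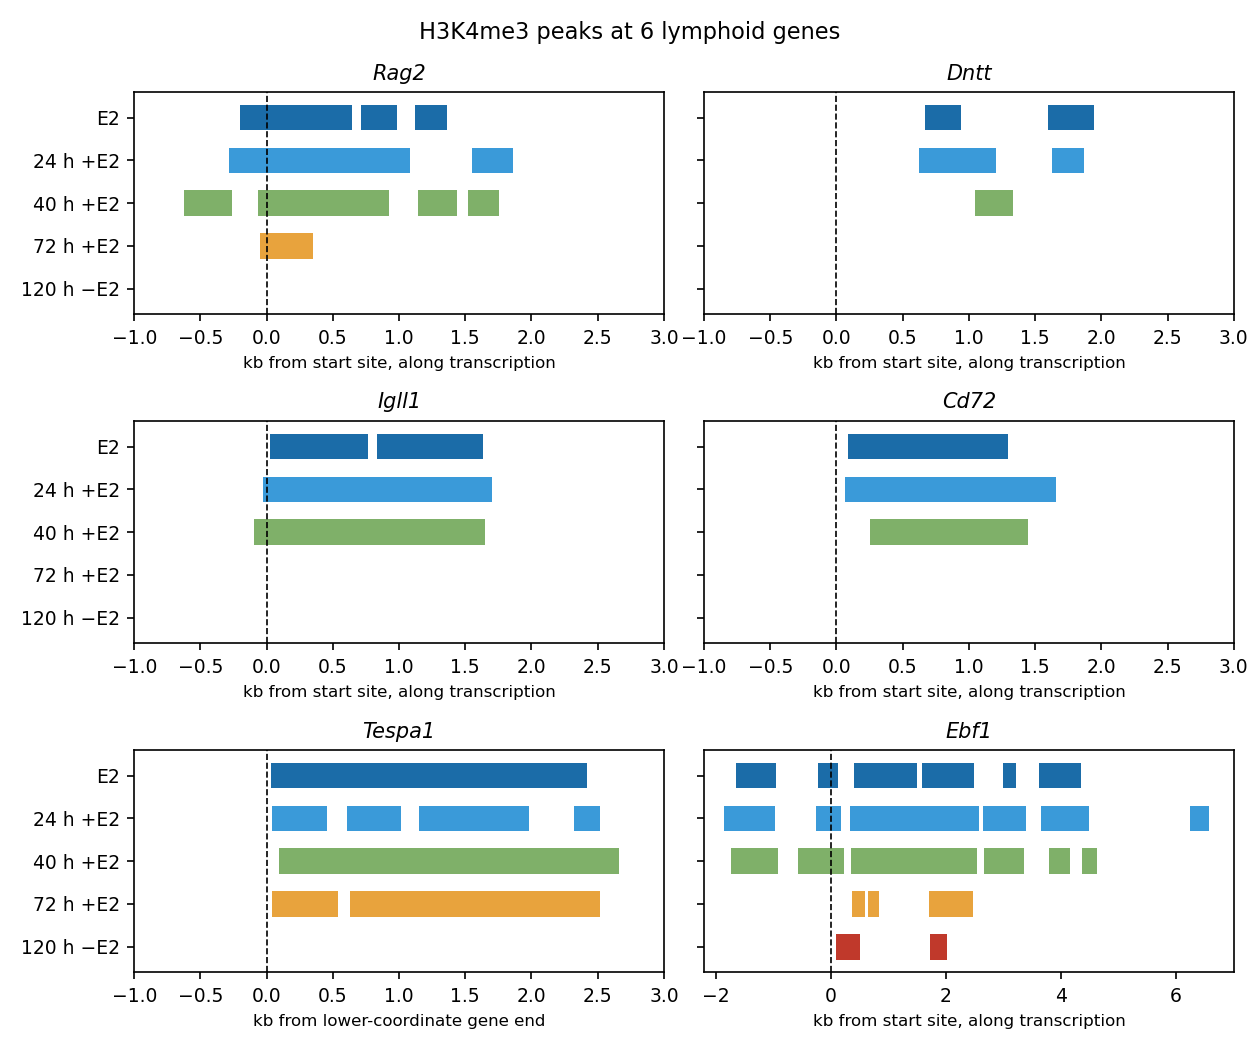
H3K4me3 peaks (bars) in the 5 conditions (rows) along the 6 genes with a peak, by distance in kb from the first annotated start site in the direction of transcription, or for *Tespa1* from the gene end of lower coordinate. Bars run from 28 to 1630 bp after the start site of *Igll1* in E2 and are absent at 72 and 120 h. The peak 274747 bp into *Ebf1* at 120 h lies off the axis.

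By presence in the 5 lists the 9 genes fell into 4 patterns. *Dntt*, *Igll1* and *Cd72* had the mark in the first 3 lists and in neither later one, as were 31 of the 21631 genes. *Rag2* and *Tespa1* had the mark in every list but that of 120 h, as did 33 genes. *Ebf1* belonged with 9956 genes marked in every list, and *Rag1*, *Vpreb1* and *Il7r* with 9783 genes marked in none. Counting lengths at least 2-fold lower than in E2 (50 bp added), 0, 1, 5 and 6 of the 6 members with a peak in any list passed in the 24, 40, 72 and 120 h lists, against 1.08%, 0.9%, 1.09% and 1.35% of genes marked in either list. None was at least 2-fold higher, as 17.2%, 17.9%, 24.8% and 32.6% of those genes were. These counts cannot be read beside the shares, because H3K4me3 peaks of these data helped to choose the members and all 6 had a peak in E2. Over the 6 members with a peak in E2 or at 120 h the median log2 ratio at 120 h was -4.74, a value that rests on the added 50 bp because 5 of them were at 0.

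Between 72 and 120 h, *Tespa1* and *Rag2* went from 2384 and 397 bp to 0 bp. Over all genes marked at 72 h, 1.45% had no mark at 120 h. Between 40 and 72 h the mark was gone at *Dntt*, *Igll1* and *Cd72*, against 1.72% of the genes marked at 40 h. These comparisons share lists with those above, and the members' part in them cannot be read beside the shares for the same reason.

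The genes most like each member were taken as the 3 with the smallest mean absolute difference of log2 length (50 bp added) over the 5 lists. For *Rag2* these were its overlapping neighbour *Iftap* (0.04, with the *Rag2* peaks in its window), *Rtn4rl2* (0.30) and *Nrcam* (0.47). Nearest to *Igll1* were *Depp1* (0.15), *Gimap5* (0.33) and *Myh7b* (0.35), and nearest to *Cd72* were *Depp1* (0.16), *Gimap5* (0.17) and *Asic4* (0.27). For *Dntt* they were *Hmcn2* (0.13), *Arhgef10* (0.27) and *Dmwd* (0.29). *Tespa1* had *Muc13* (0.46), *Nrcam* (0.51) and *Ccr2* (0.62), and *Ebf1* had *Slc45a3* (0.40), *Slc9a9* (0.41) and *Iffo1* (0.44). *Depp1*, with lengths of 976, 1730, 1584, 0 and 0 bp, was closest to both *Igll1* and *Cd72*.

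Sites of tagged HOXA9 lay within 10 kb of 5 of the 9 genes: *Dntt*, *Igll1*, *Vpreb1*, *Tespa1* and *Ebf1*. Over all genes 35.4% had a site of any of the 5 lists at that distance. In the V5-Hoxa9-AM line 3 members had a V5 site (33.4% of all genes) and 3 an AM site (19%), in each case *Igll1*, *Vpreb1* and *Tespa1*. In V5-ER-Hoxa9-AM cells with E2, 5 members had a V5 site (3.9% of all genes) and 2, *Tespa1* and *Ebf1*, an AM site (0.73%). After 72 h without E2 and 48 h with it, 1 member, *Tespa1*, had a V5 site (1.19%). Sites near members, here and below, cannot be read beside the shares, because HOXA9 sites of these data helped to choose the members. Members share sites: the 5 genes had 11 different sites, and *Igll1* and *Vpreb1* have most of theirs in common. The lists also share sites: 76.1% of the V5 sites of V5-ER-Hoxa9-AM cells in E2 overlapped a V5 site of V5-Hoxa9-AM cells, and each site near a member that several lists hold has the same start and end in all of them. How such sites came to be listed is not given in the sources used here.

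*Tespa1* had the site found in all 5 lists, chr10:130318679-130319458 (780 bp wide), 3.368 kb outside the gene end where its H3K4me3 lies. A second site, chr10:130315803-130316283, 6.543 kb from the same end, was in the V5 lists of both lines, at 72 h too. A further 3 sites, at that gene end (chr10:130322664-130322894), inside the gene and 6.888 kb beyond its other end, were in the V5-Hoxa9-AM V5 list and no other. Both sites near *Tespa1* that V5-ER-Hoxa9-AM cells had in E2 were thus also listed at 72 h. Over the whole list 240 of 1417 E2 sites (16.9%) were, and of the 844 genes with such a site within 10 kb in E2, 21.1% had one at 72 h.

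*Igll1* and *Vpreb1* have a site between them, chr16:16865175-16865696 (522 bp). It lies 1.19 kb beyond the start-site end of *Igll1* and 2.705 kb from *Vpreb1*, and it was in the V5 and AM lists of V5-Hoxa9-AM cells and the V5 list of V5-ER-Hoxa9-AM cells in E2. It was not listed at 72 h. The nearest H3K4me3 peak to it, in the 5 lists in turn, was 1218, 1160, 1093, 5033 and 5033 bp away, and was that of *Igll1* in the first 3. The other sites near the pair were in the V5-Hoxa9-AM V5 list alone: those at 1.938 and 3.242 kb beyond the far end of *Igll1*, and one at the start of *Top3b*, 1.365 kb from *Vpreb1*.

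*Dntt* and *Ebf1* had a site in V5-ER-Hoxa9-AM cells that neither list of V5-Hoxa9-AM cells holds. That of *Dntt* (chr19:41022334-41022602, 269 bp) lies 6.673 kb before the gene and was in the V5 list in E2. That of *Ebf1* (chr11:44881189-44881693, 505 bp) lies inside the gene, about 261213 bp from the nearer start site, and was in the V5 and AM lists in E2. Neither was listed at 72 h. Of all 1417 V5 sites of these cells in E2, 337 (23.8%) were in neither list of V5-Hoxa9-AM cells.

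*Rag1*, *Rag2*, *Cd72* and *Il7r* had no site within 10 kb. Within 50 kb the *Rag* genes had 1, at the start of *Traf6*, 28.682 kb from *Rag1* and 45.686 kb from *Rag2*, in both V5-Hoxa9-AM lists, and it overlapped an H3K4me3 peak in each of the 5 conditions. *Dntt* had another at 30.042 kb in those 2 lists. *Cd72* and *Il7r* had none. Just inside the 10 kb limit was a site 9.668 kb from *Vpreb1*, and just outside it one at 10.972 kb from *Vpreb1*.

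Set beside H3K4me3, which was mapped in another line, *Tespa1* had sites and a full-length mark at 72 h, and *Igll1*, *Dntt* and *Ebf1* had sites in E2, none at 72 h, and a mark that was missing or shorter at 72 h. *Vpreb1* also had a site in E2 and none at 72 h, and had no mark in any list. *Rag2* and *Cd72* had no site within 10 kb. At 72 h the mark was shorter than in E2 at *Rag2* (397 bp) and missing at *Cd72*. The V5-ER-Hoxa9-AM V5 list held 1417 sites in E2 and 387 at 72 h, so most sites of the E2 list were missing at 72 h across the genome. The part of this in the values of single genes was not tested. H3K4me3 peaks and HOXA9 sites of these data helped to choose the members, so setting them side by side describes the genes and tests no link.

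**Figure D3:**
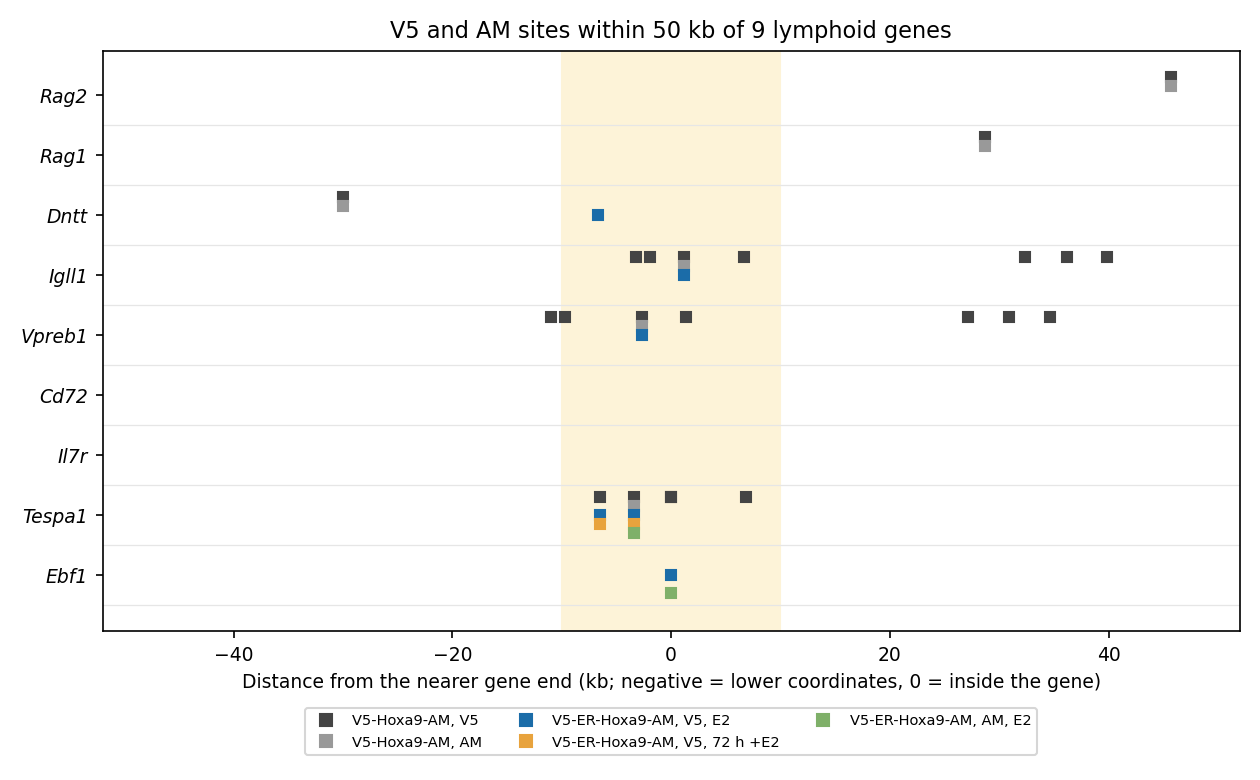
V5 and AM sites within 50 kb of the 9 genes (rows), by distance in kb from the nearer gene end (negative towards lower coordinates, 0 inside the gene). Squares are coloured by list, the shaded band marks 10 kb, and 2 sites inside *Tespa1* fall on each other at 0. The one position with all 5 colours is that 3.368 kb from *Tespa1*.

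Of 57 other genes of the same pathways, in 5 lists, 45 were marked in E2 or at 120 h. At 120 h 3 of the 45 (6.67%) had a length at least 2-fold lower than in E2 and 18 (40.0%) one at least 2-fold higher, where 1.35% and 32.6% of all genes marked in either list did. Lymphoid transcription factor genes were marked at 8 of 16 in E2 and 11 at 120 h, beside 47.1% and 53.2% of all genes. Their median log2 ratio was 1.10 over the 11 marked in either, beside 0.59 over all genes marked in either list. Among them *Sox4*, a SOX factor of progenitors, was the 1 that was 2-fold lower, with 3054 bp in E2 against 1410 bp at 120 h. From E2 to 120 h, *Irf4* went from 0 to 1331 bp, *Ets1* from 0 to 1081 bp, *Spib* from 0 to 245 bp and *Foxo1* from 198 to 2283 bp. *Pax5*, the factor that fixes the B lineage after EBF1, had lengths of 0, 472, 644, 0 and 0 bp. *Tcf3*, which encodes E2A, had 723 against 1127 bp, and *Ikzf1* (Ikaros) 3211 against 4962 bp. *Sox4*, *Pax5*, *Tcf3* and *Ikzf1* were named after their values were seen.

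Genes of pre-B cell receptor assembly and signalling were marked at 6 of 10 in E2 and 6 at 120 h. Over all genes 47.1% and 53.2% were. The median log2 ratio was 0.86 over 7, beside 0.59 over all genes marked in either list. *Blnk*, the linker that couples the receptor to its kinases, had 220 bp in E2 and none in the 4 other lists, whereas *Cd79a*, a signalling chain of the receptor, had 608 bp at 120 h and none in the others. *Lyn*, a kinase also used by myeloid cells, went from 1349 to 4113 bp, and *Cd79b* from 416 to 861 bp. *Vpreb2* and *Vpreb3*, relatives of *Vpreb1*, were at 0 bp in all 5 lists.

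Genes that act with the interleukin-7 receptor were marked at 10 of 10 in E2 and at 120 h, while *Il7r* itself was not. Their median log2 ratio was 0.90, beside 0.59 over all genes marked in either list. *Il2rg*, the chain shared by several interleukin receptors, had 582, 586, 0, 541 and 198 bp. Between E2 and 120 h, *Crlf2* went from 492 to 1320 bp, *Stat5b* from 1385 to 2844 bp and *Mcl1*, a survival gene, from 2183 to 4453 bp. Genes of DNA end joining close the breaks the RAG proteins make in any cell type that has them. Their list, which also holds *Hmgb1* and *Hmgb2*, not end-joining factors themselves, was marked at 9 of 12 in E2 and 12 at 120 h. Its median log2 ratio was 0.33, under the 0.59 over all genes marked in either list. *Nhej1*, *Polm* and *Xrcc5* were listed at 0 bp in E2 and had 1284, 911 and 194 bp after 120 h, and *Dclre1c* (Artemis), which opens the hairpin ends, went from 1221 to 2126 bp.

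Other genes of lymphoid priming were marked at 4 of 9 in E2 and 5 at 120 h, beside 47.1% and 53.2% of all genes. Their median log2 ratio was 1.04 over 5, beside 0.59 over all genes marked in either list. Between E2 and 120 h, *Notch1* went from 966 to 3676 bp, *Satb1* from 1643 to 3435 bp and *Cd27* from 390 to 783 bp. *Flt3*, the receptor that marks progenitors with lymphoid potential, had 2060 against 1514 bp and was named after its values were seen.

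Markers of cells that a culture could hold beside myeloid progenitors were mostly unmarked in E2. Mature B cell genes were marked at 1 of 8 in every list (*Cd180*, 2037 bp in E2, a receptor relative that myeloid cells also use), natural killer cell genes at 0 of 9 in every list, and T cell genes at 1 of 15 in E2 (*Lck*, 291 bp) and 5 at 120 h. The B cell gene *Ms4a1* and the T cell genes *Cd3e*, *Cd4* and *Cd8a* were at 0 bp throughout. Other T cell genes were not: *Gata3*, a regulator of T cell development, had 0, 554, 673, 408 and 412 bp, *Lck*, a kinase of T cell receptor signalling, 291, 1321, 1171, 873 and 855 bp, and *Cd3d*, a chain of that receptor complex, 0, 0, 0, 217 and 516 bp. *Tcf7*, another regulator, and *Lat*, an adaptor of the receptor, had 443 and 202 bp at 120 h and none in the 4 other lists. Myeloid progenitor genes were marked at 9 of 10 in every list, with *Elane* at 0 bp, and neutrophil genes at 1, 2, 2, 3 and 9 of 10. The summed length over the neutrophil genes was 568, 1861, 1503, 3858 and 26641 bp in the 5 lists in turn. Over the myeloid progenitor genes it was 37352, 42016, 42035, 38913 and 23594 bp, over the T cell genes 291, 1875, 1844, 1498 and 2428 bp, and over the mature B cell genes 2037, 2439, 1532, 2352 and 2402 bp. The 120 h list thus had the highest neutrophil sum and the lowest myeloid progenitor sum of the 5 lists. *Mpo*, the enzyme of primary granules, had 5894, 6347, 6207, 6782 and 1270 bp, and *Cebpe*, a regulator of late granulocytes, 0, 200, 224, 2234 and 3327 bp. *Mpo* was the progenitor gene with the lowest ratio of 120 h over E2. Of the 9 marked progenitor genes 3 (*Cd34*, *Ctsg* and *Mpo*) were at least 2-fold lower, against 1.35% of all genes marked in either list. The median log2 ratio over the 9 was -0.43, beside 0.59 over all genes marked in either list. The part of a changing mixture of cells in the members' values was not tested.

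**Figure D4:**
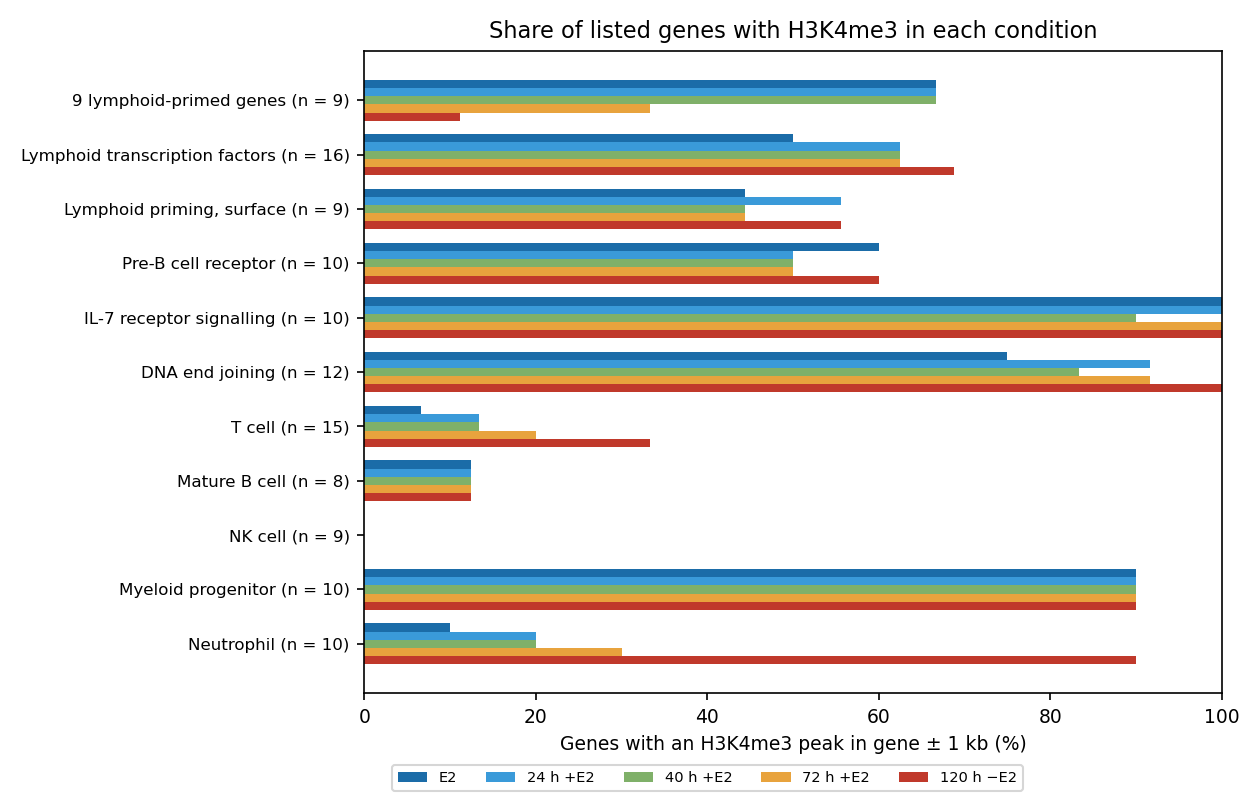
Share (%) of the genes of each list with an H3K4me3 peak within the gene and 1 kb on either side, in the 5 conditions (bars, 1 library each). The 9 genes go from 6 marked in E2 to 1 at 120 h, the neutrophil list from 1 to 9 of 10, and the 5 lymphoid pathway lists have as many or more genes marked at 120 h as in E2. Over all genes, not drawn, the share goes from 47.1% to 53.2%.

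The lists themselves differed in how much was called. H3K4me3 peaks numbered 17497, 22871, 21329, 21790 and 23835 in the order E2, 24, 40, 72 and 120 h, and covered 10.4, 14.2, 14.9, 16.0 and 17.3 Mb. The members' lower values at 72 and 120 h came from lists that covered more of the genome than the E2 list. The part of differences in calling in the members' values was not tested.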

How the data were processed

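The samples were grouped by their titles. Of 30 samples 21 had peak lists, and 10 were used: 5 for H3K4me3, 3 for V5 and 2 for AM. The authors deposited each list as the chromosome, start and end of every peak (unit other: coordinates in bp) with no score, height or p-value. Per the submitters' processing notes, Bowtie2 2.0, BWA and MACS2 2.0 were used with mm9 and mm10. Their roles, the threshold of the calls, the depth and whether inputs entered are not given in the sources used here, so a missing peak may be one just under the threshold.

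The build was inferred from the coordinates. In E2, 29.2% of H3K4me3 peaks overlapped a RefSeq promoter window of GRCm38.p6 and 2.05% did after a shift of 100 kb, and for V5-Hoxa9-AM V5 the shares were 7.29% and 0.982%. Lists of the V5-ER-Hoxa9-AM line, being short, gave little contrast alone (2.61% and 1.20% in E2), but 76.1% of the E2 V5 sites overlapped a V5-Hoxa9-AM V5 site. These lists were treated as mm10. The 11 H3K27ac and H3K27me3 lists ran past the last gene of chromosome 1 and were taken to be on another build, so they were not used here.

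Peaks on chromosomes 1 to 19 and X were joined per list and their length summed in each window (Python 3.11.15, numpy 2.4.6, pandas 2.3.3, matplotlib 3.10.9), with code tested on simulated intervals. A gene was marked if at least 1 bp was covered. Gene positions came from RefSeq. The table gives no strand for *Tespa1*. Ratios used 50 bp added to both lengths, so a ratio to a gene at 0 depends on that number.

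The members, gene lists and rules were chosen with earlier results of these data known. Named genes were the 9 members, the 3 most alike per member, up to 4 per list by absolute ratio, overlapping neighbours, and those said to be chosen later. Listed cell markers were also named after their values were seen, and *Hmgb1* and *Hmgb2* to describe their list. Some listed genes are not reported here by name.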

Additional observations from a re-analysis of the deposited data

How the results depend on the processing

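Alternatives were other windows, wider peaks, lists of equal length (the 17497 widest peaks each), other added lengths and other distances to sites. With gene plus 5 kb on each side, 5 members were marked at 72 h and 4 at 120 h, and 3 were marked in E2 and not at 120 h. The peaks added at *Cd72* and *Vpreb1* were those of *Tesk1* and *Top3b*. At 120 h *Igll1* also gained a peak, 3.305 kb from the gene, with no protein-coding gene within 1 kb of it. With peaks wider than the median of their list, 0 members were marked at 120 h. With sites within 50 kb, 6 members had a V5 and 6 an AM site of V5-Hoxa9-AM cells. With sites inside the gene the counts were 1 for V5 and 0 for AM there, 1 for V5 in E2, 0 for V5 at 72 h and 1 for AM in V5-ER-Hoxa9-AM cells, and 2 over all lists. With sites wider than the median, 1 member had an AM site in V5-ER-Hoxa9-AM cells. The share of all genes marked in E2 and not at 120 h was 3.94% with the wider peaks and 1.78% at equal length, against 0.903%. For the 6 marked members the log2 ratio of 120 h over E2 was below 0 in 35 of 35 such refits. That sign supports nothing, because this contrast helped to choose the genes and 5 of the 6 were at 0 bp at 120 h. A change of the added length also cannot turn a sign. *Dntt* had no peak wider than the median in E2 or at 120 h, so it has no ratio there. The ratio moved by more than 1.5 times in 19 refits, with the added length, the window or the choice of peaks. With gene plus 5 kb it was -0.73 for *Cd72*, against -4.66, and -1.82 for *Igll1*, against -4.99. Other counts stayed within 1.5 times of those reported. No paired analysis was possible because each condition had 1 library. Read depth, which sets what can be called a peak, is not given in the sources used here.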

Other observations

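Peaks farther than 1 kb from the members followed courses of their own. Before *Dntt*, a narrow H3K4me3 peak lay about 12.8 kb from the gene at 40 h (chr19:41016200-41016469), at 72 h (chr19:41016175-41016491) and at 120 h (chr19:41016199-41016457) and was not listed in E2 or at 24 h. It was thus listed at 72 and 120 h, when the gene itself had no peak. Beyond the far end of *Igll1*, a peak of 401 bp was listed at 120 h and in no other condition (chr16:16856966-16857366, 3.305 kb from the gene), and it overlapped a V5 site of V5-Hoxa9-AM cells.

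Upstream of *Ebf1*, peaks between 3.948 and 6.499 kb from the gene were listed in E2 and at 24, 40 and 72 h, the widest of 2054 bp at 24 h, and none within 20 kb at 120 h. A peak 10.6 to 10.8 kb from *Tespa1* was listed in the same 4 conditions, at 231 bp wide in E2 and 698 bp at 40 h, and not at 120 h. The nearest H3K4me3 peak to the *Ebf1* site of V5-ER-Hoxa9-AM cells was 11154 bp away at 120 h, the peak inside that gene, and 258735 bp away in E2. These peaks were noticed in the data, their widths are near the narrow end of their lists in several cases, and no test bears on them.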
